A study of Mus musculus with 36 samples.

Results

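Genes of the Nodal signalling pathway were followed through the first 8 days of differentiation of mouse embryonic stem cells. The set held 8 genes: the ligands Nodal and Gdf3, the activin subunit Inhba, the coreceptor Tdgf1, the type II receptor Acvr2b, the antagonists Lefty1 and Lefty2, and the intracellular inhibitor Smad7. They were chosen by name, and all 8 had a row among the 25965 genes of the deposited expression table. The cells were female C57/Bl6 Xmas mESCs, with the reporters GFP and mCherry at Hprt, each on a different X chromosome. They were expanded in 2i, an inhibitor medium that holds mESCs in the naive state, and were weaned into a serum medium, DME HiHi, to differentiate. RNA from whole cultures was sequenced on each of days 0 to 8, with 4 libraries a day. The 4 libraries of a day came from the 2 lines X14 and X18, each with a library named "double" and one named "single". The labels do not say what these words stand for, and they are used below only as names. The groups of the 9 days therefore shared the strain, sex and medium change, and each held both lines and both names. Whether every library carried both reporters is not stated by the labels. The same 4 line and label series recurred on every day, so libraries of different days were not independent samples. In the comparisons of days, p-values measured only the spread between these 4 series. The comparisons of names and of lines, with their changes between periods, treated libraries of different days of the same series as independent samples. Their p-values therefore do not measure the spread between series.

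Nodal is a secreted ligand of the TGF-beta family that signals through type I and type II activin receptors and a Cripto-class coreceptor, which Tdgf1 encodes, to phosphorylate Smad2 and Smad3. With Foxh1 these Smads switch on Nodal itself and the genes of its own antagonists, the Lefty proteins, so that the pathway carries both a positive and a negative loop. It is known for keeping the epiblast pluripotent, and later for inducing mesoderm and endoderm at the primitive streak.

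Some of these genes have near-identical stretches elsewhere in the genome, which bears on how far their reads can be told apart. Lefty1 (chr1:180935022-180938400, plus strand, mm10) and Lefty2 (chr1:180893108-180899103, plus strand) lie beside each other, and their annotated transcripts (GENCODE M21) shared 197 windows of 75 bases, the read length. These were 11.7% of the windows of Lefty1 and 7.77% of those of Lefty2. Tdgf1 (chr9:110939610-110946158, minus strand) shared 161 such windows with the processed pseudogene Tdgf1-ps1, which are 5.99% of its own windows and 36.7% of those of the pseudogene. The table has the pseudogene as AC139347.1 (chr16:3730510-3731025), and its reads came to between 21.4% and 41.8% of those of Tdgf1 over the 36 libraries. No window was shared between Nodal and either Lefty gene or Gdf3. The 2 sequences that follow are, for each pair, the first shared window found in the coding part of the gene and inside 1 exon. A read from the Lefty window fits exon 2 of Lefty1 (chr1:180936568-180936642) and exon 2 of Lefty2 (chr1:180894156-180894230) equally well, and one from the Tdgf1 window fits exon 3 of Tdgf1 (chr9:110943179-110943253, minus strand) and the pseudogene (chr16:3730583-3730657).
Lefty1 and Lefty2: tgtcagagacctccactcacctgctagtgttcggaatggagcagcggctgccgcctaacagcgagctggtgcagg
Tdgf1 and Tdgf1-ps1: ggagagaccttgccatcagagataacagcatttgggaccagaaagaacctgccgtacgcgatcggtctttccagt

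The levels of Lefty1, Lefty2 and Tdgf1 are uncertain, since the treatment of reads with several matches was not given in the sources used here. The windows counted were exact matches, so their shares do not bound the reads that could be placed in either row. The remaining genes lie at chr10:61417972-61425338 on the plus strand (Nodal), chr6:122605403-122610087 on the minus strand (Gdf3), chr9:119402444-119433501 on the plus strand (Acvr2b) and chr13:16011851-16027211 on the plus strand (Inhba), and the position of Smad7 is given with its values.

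Promoters of 4 of the 8 genes were in the RefSeq table used (GRCm38.p6): Nodal, Tdgf1, Acvr2b and Inhba. The 250 bases before the start of Nodal and Tdgf1 are shown because both genes rose from day 5 to day 6, as described below. They lie at chr10:61417722-61417971 (plus strand) and chr9:110946159-110946408 (minus strand), and capitals mark matches to the KLF letters GGGNGTGG.
Nodal: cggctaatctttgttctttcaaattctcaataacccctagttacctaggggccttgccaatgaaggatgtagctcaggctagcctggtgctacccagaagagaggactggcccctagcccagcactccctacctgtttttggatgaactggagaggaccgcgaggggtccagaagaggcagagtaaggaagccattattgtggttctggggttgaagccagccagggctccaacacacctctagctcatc
Tdgf1: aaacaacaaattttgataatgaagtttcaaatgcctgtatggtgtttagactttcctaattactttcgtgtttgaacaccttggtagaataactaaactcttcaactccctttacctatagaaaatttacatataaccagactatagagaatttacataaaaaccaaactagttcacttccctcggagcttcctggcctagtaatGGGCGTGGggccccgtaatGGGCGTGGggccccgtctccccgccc

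The 250 bases before each start were searched on both strands for the FOXH1 letters AATNCACA, the SMAD letters GTCTAGAC and the KLF letters GGGNGTGG, which do not overlap one another in these sequences. Among the 4 promoters only that of Tdgf1 held a match, with the KLF letters starting 45 and 26 bases before the start. Of all 32851 promoters in the table, 15.9% held the KLF letters, 3.18% the FOXH1 letters and 0.167% the SMAD letters. The windows of Nodal, Acvr2b and Inhba held none of these letters.

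Each library held 612740 to 2445826 reads in genes, with a median of 1297944. A floor of 3 reads, which covers counting error only, was worth 1.04 to 3.90 RPM, reads scaled to a common library size. Levels below are RPKM, which also divides by exon length and so allows genes to be compared. That the deposited values are on this scale was inferred from their steps, and every comparison of levels between genes rests on it. Values of a day are always given in the order X14 double, X14 single, X18 double, X18 single. Hprt was higher in the double than in the single library in 16 of 16 pairs on days 1 to 8. On day 0 the pair of X14 ran the other way, with 47.0 RPKM in the library labelled double and 108.1 in the library labelled single, and whether the names of these 2 libraries were exchanged was not tested. The fit with day as its only factor does not use the names, so an exchange would leave it unchanged. Values without both libraries are given where they change a call against day 0, and the counts without them stand with the comparisons of days. Why leaving them out changes these calls was not tested. The defining markers of mESCs were present on day 0: the summed level of 7 of them (Pou5f1, Sox2, Nanog, Zfp42, Esrrb, Klf4 and Tfcp2l1) was 1457 to 1974 RPKM.

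Over the whole course the members had different profiles. Nodal, Lefty1 and Lefty2 were highest on day 6 in each of the 4 series, Gdf3 and Tdgf1 fell by day 8, and Acvr2b was higher on days 5 to 7 than on day 0. Smad7 had its highest mean on day 2, in ranges that overlapped those of day 1. Inhba was at the floor throughout. Of the 8 genes, 7 passed the filter on low values (at least 1 RPM in at least 4 libraries) and were tested, and all 7 changed over the 9 days in a moderated F-test (limma, adjusted p under 0.05), where the background was 65.2% of the 14612 genes tested. The adjusted p ranged from 1.0e-18 for Gdf3 to 0.00155 for Smad7, and only Smad7 lost the call in a fit that left out 1 of the 4 series (0.0664 without the X18 double libraries). Because the RNA came from whole cultures, fewer cells that express a gene and less RNA per cell cannot be told apart in any of these values.

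**Figure D1:**
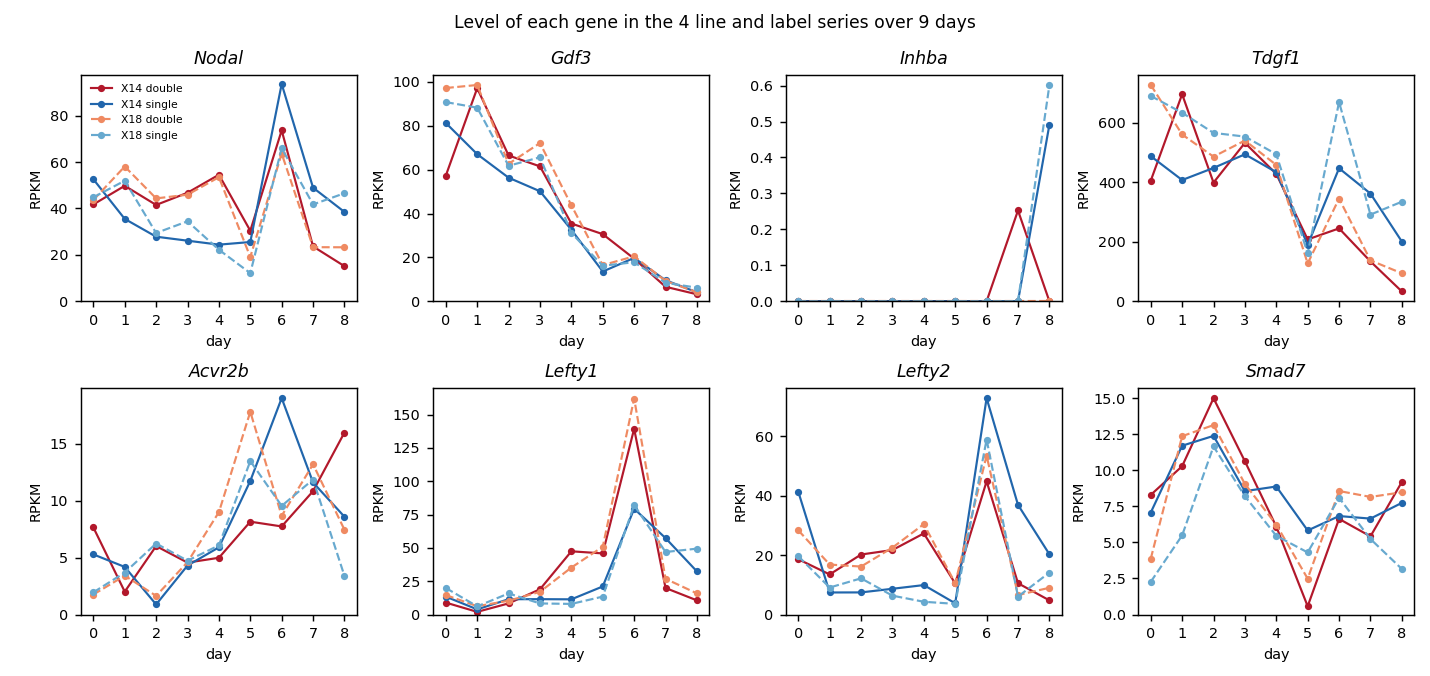
RPKM (vertical axes, linear, starting at 0) of each of the 8 genes against day (horizontal axes), with 1 point per library and 1 line for each of the 4 line and label series. Nodal, Lefty1 and Lefty2 peak on day 6 in all 4 series, Gdf3 falls to 3.18 to 6.16 RPKM by day 8, and the axis of Inhba ends below 1 RPKM.

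The order of the genes on the per-length scale changed with time. Tdgf1 had the highest mean on every day, from 578 RPKM on day 0 to 166 on day 8. On day 0 it was followed by Gdf3 (81.6), Nodal (45.7), Lefty2 (27.0), Lefty1 (14.2), Smad7 (5.37) and Acvr2b (4.16). Ranges of neighbours overlapped between Lefty2 and Lefty1 and between Smad7 and Acvr2b. By day 6 Lefty1 stood in second place at 116 RPKM, above Nodal (74.3), Lefty2 (57.5) and Gdf3 (19.4), with overlapping ranges of Lefty1 and Nodal and of Nodal and Lefty2. By day 8 Gdf3 had the lowest mean of the 7 tested genes, 4.39 RPKM.

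Nodal, the ligand that gives the pathway its name, had lower levels in the single than in the double series on day 4, was below day 0 on day 5 and peaked on day 6. It stood at 41.7, 52.6, 43.7 and 44.8 RPKM on day 0 and at 54.5, 24.4, 53.5 and 22.2 on day 4. Day 5 libraries held 30.4, 25.5, 19.1 and 12.1, those of day 6 held 73.7, 93.7, 63.7 and 66.0, and those of day 7 held 23.6, 49.0, 23.3 and 41.8. Every day 6 library was above every library of the other 8 days, and when days were ordered by mean level no other neighbouring pair of days was free of overlap. Nodal was lower on day 5 than on day 0 by 2.21-fold (log2 difference -1.15, SE 0.323, adjusted p = 0.00562), a call that was lost without the X18 single libraries (-0.90, adjusted p = 0.0709) and held without the X14 day 0 libraries (-1.10, adjusted p = 0.0278). The rise from day 5 to day 6 was 3.57-fold (log2 difference 1.83, SE 0.323, adjusted p = 1.9e-04), and it passed the test under all 13 alternatives. The step from day 6 to day 7 was -1.17 on the log2 scale and missed the threshold (adjusted p = 0.0604; 0.0267 to 0.0481 in the 3 of 13 alternatives that called it). On day 8 Nodal differed from day 0 by -0.69 (adjusted p = 0.0780; -0.65 and 0.185 without the X14 day 0 libraries), with 15.1, 38.5, 23.3 and 46.6 RPKM.

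Gdf3, a related ligand that is expressed in the pluripotent epiblast, fell over the course. Its libraries stood at 57.3, 81.3, 97.2 and 90.8 RPKM at the start and at 35.4, 32.6, 43.7 and 31.1 after 4 days. Day 6 libraries held 19.4, 19.8, 20.5 and 17.8, and those of day 8 held 3.18, 4.12, 4.10 and 6.16. The groups of these 4 days did not overlap. It was the only tested member called on day 4 against day 0, where the background was 18.6% of genes in either direction and 6.4% lower, and was then 2.26-fold lower (log2 difference -1.18, SE 0.212, adjusted p = 8.5e-05). On day 8 it was 18.8-fold lower than on day 0 (log2 difference -4.23, SE 0.212, adjusted p = 5.3e-17), and 8.31-fold lower than on day 4 (adjusted p = 9.5e-13). These calls held under every alternative run, and without the day 0 libraries of X14 the fall to day 8 was -4.46 on the log2 scale. Between day 5 (mean 19.2 RPKM) and day 6 (19.4) the level of Gdf3 did not differ beyond the spread (log2 difference 0.09, SE 0.212). It fell again by 1.21 on the log2 scale from day 6 to day 7 (adjusted p = 0.00205), a call that was lost without the X18 double libraries (adjusted p = 0.0504) and without the X18 single libraries (0.0587).

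Inhba, whose product pairs with itself to make activin A, was almost undetected. It had 4 reads in all: 1 read in the X14 double library of day 7, and on day 8 2 reads in the X14 single and 1 read in the X18 single library. All are at or under the floor of 3 reads, which for this gene was 0.527 to 1.97 RPKM, so Inhba was not tested and no change is given for it.

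Tdgf1, the coreceptor that Nodal and Gdf3 need to bind the type I receptor, fell on day 5, returned on day 6 and fell again, and on the last days it differed between the labels. It stood at 406, 488, 728 and 691 RPKM on day 0, and at 428, 434, 459 and 495 on day 4. Day 5 libraries held 208, 190, 127 and 161, and those of day 6 245, 448, 345 and 670. By day 8 its libraries held 32.9, 200.9, 94.0 and 335 RPKM. All day 8 libraries were below all day 0 libraries, which held for 2 of the 7 tested members (Gdf3 and Tdgf1), with 9.26% of all genes tested as the background. On day 8 Tdgf1 was 4.68-fold lower than on day 0 (log2 difference -2.23, SE 0.405, adjusted p = 3.5e-05) and 3.77-fold lower than on day 4 (log2 difference -1.92, adjusted p = 3.8e-04), and both calls held under every alternative run. It fell by 1.43 on the log2 scale from day 4 to day 5 (adjusted p = 0.0136) and rose by 1.24 from day 5 to day 6 (SE 0.405, adjusted p = 0.0363). The first of these steps was lost without the X14 single (adjusted p = 0.0581) or X18 double (0.132) libraries. The rise was lost without the X14 single (0.129), X18 double (0.170) or X18 single (0.160) libraries, without the X14 double library of day 5 (0.0516) and when libraries were scaled to their 75th percentile (0.0877). The fall to day 7 (log2 difference -1.42, adjusted p = 0.00466) was lost without the X18 double libraries (-1.09, adjusted p = 0.116) and after quantile normalization (-0.88, adjusted p = 0.0574). The row of the pseudogene had means of 666 (day 0), 171 (day 5), 528 (day 6) and 174 RPKM (day 8).

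Acvr2b, a type II receptor that binds activins and Nodal, was higher from day 5 to day 7 than on day 0. It rested on 2 to 68 reads per library. It stood at 7.65, 5.28, 1.76 and 1.95 RPKM on day 0, where the 2 lines did not overlap. Day 5 libraries held 8.16, 11.7, 17.8 and 13.5, and those of day 7 held 10.8, 11.6, 13.2 and 11.9. The rise over day 0 was called on day 5 (3.59-fold, log2 difference 1.84, SE 0.488, adjusted p = 0.00337), day 6 (1.62, adjusted p = 0.00784) and day 7 (1.79, adjusted p = 0.00321). On day 8 the libraries were spread from 3.39 to 16.0 RPKM, and the difference from day 0 was 1.16 (adjusted p = 0.0502). Without the day 0 libraries of X14 the differences of days 5 to 8 were larger, at 2.73, 2.51, 2.68 and 2.05, the last with an adjusted p of 0.00234, and day 4 was also called (1.78, adjusted p = 0.0107). The calls of days 5, 6 and 7 were lost without the X18 double libraries (adjusted p = 0.107, 0.0888 and 0.0756), and that of day 6 also without the X18 single libraries (0.0569).

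Lefty1, a secreted antagonist that binds Nodal and its coreceptor, showed the largest rise of the set over day 0. It stood at 8.95, 13.4, 14.6 and 19.9 RPKM on day 0 and at 2.00, 3.87, 6.24 and 6.13 on day 1. Day 4 libraries held 47.4, 11.4, 35.2 and 7.97, those of day 5 held 45.8, 21.1, 50.8 and 13.4, and those of day 6 held 139, 79.3, 162 and 82.1. The libraries named double were the higher ones from day 3 to day 6 in both lines. On day 6 Lefty1 was 8.05-fold above day 0 (log2 difference 3.01, SE 0.502, adjusted p = 1.3e-05), which held under every alternative run. It was then 3.86-fold above day 5 (log2 difference 1.95, adjusted p = 0.00781), which was lost only without the X14 single libraries (1.96, adjusted p = 0.0553). On day 7 it was 19.9, 57.3, 26.8 and 46.9 RPKM, still called above day 0 (1.34, adjusted p = 0.0281). On day 5 its difference from day 0 was 1.06 (adjusted p = 0.0972), called only without the X18 single libraries (1.60, adjusted p = 0.0227). The call of day 7 was lost without the X14 day 0 libraries (1.02, adjusted p = 0.175), without the X14 single (0.173) or X18 double (0.0634) libraries and when libraries were scaled to their 75th percentile (0.0646). The drop on day 1, to a mean of 4.56 from 14.2 RPKM, was not called in the fit of all libraries (log2 difference -1.72, adjusted p = 0.480), and was called without the X14 day 0 libraries (-2.04, adjusted p = 0.0373).

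Lefty2, the second Lefty antagonist and a target of Nodal signalling in mesoderm, had the largest single step of the set. It stood at 18.6, 41.3, 28.3 and 19.6 RPKM on day 0, and at 27.3, 9.91, 30.4 and 4.29 on day 4, where both double libraries were above both single ones. Day 5 libraries held 10.5, 3.78, 10.5 and 3.59, those of day 6 held 44.8, 72.8, 53.5 and 58.9, and those of day 7 held 10.5, 36.9, 6.56 and 6.04. Every library of day 6 was above every library of the other days. Lefty2 was 4.11-fold lower on day 5 than on day 0 (log2 difference -2.04, SE 0.557, adjusted p = 0.00431). From day 5 to day 6 it rose 9.10-fold (log2 difference 3.19, SE 0.557, adjusted p = 1.7e-04), and both calls held under every alternative run. It fell by 2.35 from day 6 to day 7 (adjusted p = 0.0262), a call that was lost without the X14 double (adjusted p = 0.0693), X18 double (0.247) or X18 single (0.235) libraries. On day 8 against day 0 the difference of Lefty2 was -1.28 (adjusted p = 0.0587). It passed the threshold in 6 of 14 alternatives, among them voom, quantile normalization and the replicate number as a block (adjusted p = 0.0438 for the block). Without the X14 day 0 libraries the difference of day 5 was -1.92 (adjusted p = 0.0253) and that of day 8 was -1.16 (0.165).

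Smad7 (chr18:75367529-75395935, plus strand), an intracellular inhibitor that blocks the receptors and is itself induced by TGF-beta signals, kept a low level. It stood at 8.29, 7.07, 3.87 and 2.27 RPKM on day 0. Day 2 libraries held 15.0, 12.4, 13.1 and 11.7, and those of day 5 held 0.575, 5.83, 2.49 and 4.30. All 4 libraries of day 2 were above those of day 0 (11.7 against 8.29 RPKM at the nearest), with a log2 difference of 1.45 (SE 0.446, adjusted p = 0.0545) that passed with the replicate number as a block (adjusted p = 0.0345) and without the X14 day 0 libraries (2.13, adjusted p = 0.00254). Smad7 fell by 1.42 from day 4 to day 5 (adjusted p = 0.0259) and rose by 1.61 to day 6 (adjusted p = 0.0135), when it was 6.63, 6.83, 8.56 and 8.09 RPKM. The low value of 0.575 on day 5 is 2 reads in the X14 double library, which had the fewest reads in genes of all libraries and the value is under the floor. Without that library the steps were -0.72 (adjusted p = 0.190) and 0.92 (adjusted p = 0.121), so neither was called. Leaving out the X18 double libraries also ended both calls (adjusted p = 0.131 and 0.103), and leaving out all X14 double libraries did so (0.235 and 0.148), as did a fit of the libraries of the compared days alone (0.145 and 0.0947). The voom fit kept only the rise (adjusted p = 0.0525 for the fall). On days 1, 3 and 6, too, Smad7 was called above day 0 without the X14 day 0 libraries (1.68, 1.61 and 1.34, adjusted p = 0.0396, 0.0166 and 0.0320).

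Between consecutive days, most members were called at the step from day 5 to day 6. Of the 7 tested, 5 rose (Nodal, Tdgf1, Lefty1, Lefty2 and Smad7) and none fell, against 9.72% of all genes called in either direction and 7.14% called higher. The median log2 difference of the 7 was 1.61, and that of all genes tested was 0.13. In the same 5 members the lowest library of day 6 was above the highest of day 5, which held for 14.8% of all genes. They were also above both day 5 and day 7 in each of the 4 series, as were 7.95% of all genes. Acvr2b (log2 difference -0.23, SE 0.488) and Gdf3 were not called. The level of day 6 was the highest of the 9 days in all 4 series for 3 of 7 members, Nodal, Lefty1 and Lefty2, against 1.12% of all genes. The step to day 6 was singled out from the levels of these members. Shares of all genes with such orders are therefore a description and support nothing for the members. Of all calls at this step 73.4% were higher (1043 against 378 lower), and this share was 56.1% when libraries were scaled to their 75th percentile and 55.2% after quantile normalization. Those scalings moved the median difference of all genes from 0.13 to -0.03 and -0.04, and the direction of the 5 members was the same under each. Leaving out the X14 double library of day 5 reduced the members called to 3, Nodal, Lefty1 and Lefty2.

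**Figure D2:**
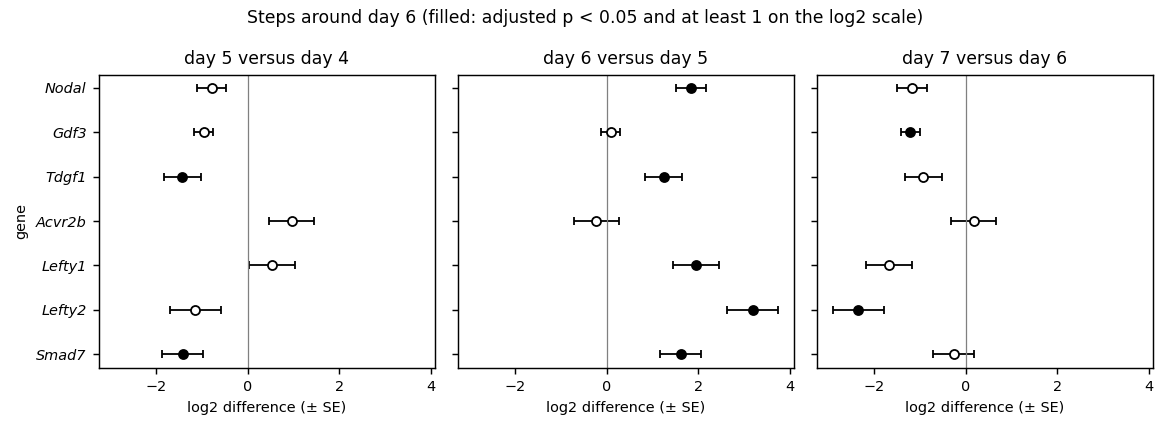
Log2 difference between consecutive days (horizontal axes) for the 7 tested genes (vertical axis), as the fitted value with its SE (bars), n = 4 libraries a day. Filled points passed the test: on the step from day 5 to day 6 they are Nodal, Tdgf1, Lefty1, Lefty2 and Smad7, all to the right of 0, while on the steps before and after it the 2 filled points of each panel lie to the left.

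On the other steps fewer members were called. None was called against day 0 on days 1, 2 or 3, where limma called 0.0684%, 2.96% and 8.89% of genes. At an unadjusted p under 0.05 the members were 3 on day 1 (Lefty1, Lefty2 and Smad7) and Smad7 alone on days 2 and 3, and the voom fit called Smad7 on day 2 and none on the other 2 days. These low counts depended on the X14 day 0 libraries. Without them 2, 1 and 1 members were called on days 1, 2 and 3 (Lefty1 and Smad7, then Smad7 alone). The share of all genes called was then 5.61%, 23.2% and 24.9%. No member was called between days 1 and 2, 2 and 3, 3 and 4, or 7 and 8, where the backgrounds were 0.0342%, 0.185%, 5.03% and 0.438%. In those 4 comparisons 2, 0, 1 and 1 members had an unadjusted p under 0.05 in limma, and the voom fit called none. The last 2 were Gdf3, whose adjusted p was 0.0163 from day 3 to day 4 (log2 difference -0.80) and 0.0210 from day 7 to day 8 (-0.98), both short of the minimum difference of 1, and quantile normalization called the latter (-1.06, adjusted p = 0.00984). Day 5 differed from day 0 in 5 members, Acvr2b higher and Nodal, Gdf3, Tdgf1 and Lefty2 lower (background 26.8%, with 15.8% higher and 11% lower). Day 5 differed from day 4 in 2, Tdgf1 and Smad7, both lower (background 10.6%, with 5.78% lower). Without the X14 double library of day 5 these were Tdgf1 and Gdf3 (Gdf3 -1.21, adjusted p = 9.8e-05; -0.96 with it). Day 7 differed from day 6 in 2, Gdf3 and Lefty2, both lower (background 0.89%, with 0.417% lower), and in the fits without the X18 double or the X18 single libraries in none, where limma called 22 and 10 of all genes. Against day 0, day 6 had 3 members called (Lefty1 and Acvr2b higher, Gdf3 lower; background 33.4%, with 22.4% higher and 11% lower), day 7 had 4 (Lefty1 and Acvr2b higher, Gdf3 and Tdgf1 lower; background 35.4%, with 23.8% higher and 11.6% lower) and day 8 had 2 (Gdf3 and Tdgf1 lower; background 35%, with 11.1% lower). Without the X14 day 0 libraries 5, 4, 3 and 3 members were called on days 5 to 8, where the share of all genes was 33.7%, 41.8%, 43.1% and 42.3%. Day 8 against day 4 had the same 2 genes lower (background 24.7%, with 9.01% lower).

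Markers of other cell types moved in the same days. The summed level of 4 markers of the primitive streak and early mesoderm (T, Mixl1, Eomes and Mesp1) lay between 0.485 and 1.95 RPKM on day 5 and rose to between 13.4 and 34.8 a day later. It then spread over 6.01 to 74.8 (day 7) and 7.40 to 94.1 RPKM (day 8). The X14 single series was the highest of the 4 on each of days 6 to 8. Of these markers T and Eomes were called from day 5 to day 6 and Mixl1 was not (adjusted p = 0.0952). Mesp1 had no read before day 8. The 7 mESC markers summed to 392 to 705 RPKM on day 5 and 482 to 564 on day 6. Among them Nanog alone was called at this step (log2 difference 1.58, SE 0.458, adjusted p = 0.0183). The rest had log2 differences from -0.59 (Zfp42) to 0.82 (Esrrb), some higher and some lower. The 4 primed pluripotency markers (Fgf5, Otx2, Pou3f1 and Dnmt3b) were highest on day 4, at 379 to 749 RPKM, and went from 81.6 to 212 on day 5 to 187 to 318 on day 6. Among them Fgf5 was called at this step (log2 difference 4.38, SE 0.479, adjusted p = 1.4e-07). Pou3f1 (adjusted p = 0.133), Dnmt3b (0.433) and Otx2 (0.941) were not. The sum of the trophoblast markers (Cdx2, Elf5, Gcm1 and Hand1) went from at most 0.921 RPKM on day 5 to between 1.22 and 14.02 on day 6. Of these only Hand1 was called at this step (log2 difference 2.86, adjusted p = 0.0149). Gcm1 (adjusted p = 0.140) and Cdx2 (0.513) were not, and Elf5 had no read on day 6. The 8 visceral endoderm markers stayed at or below 8.33 RPKM on every day, and Ttr, which defines that tissue, had no read in any library. Lists of neural progenitors (4 genes, at most 18.5 RPKM) and fibroblasts (5 genes, at most 25.4 RPKM, on day 5) were low. The part of these cell types in the levels of the Nodal genes was not tested.

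**Figure D3:**
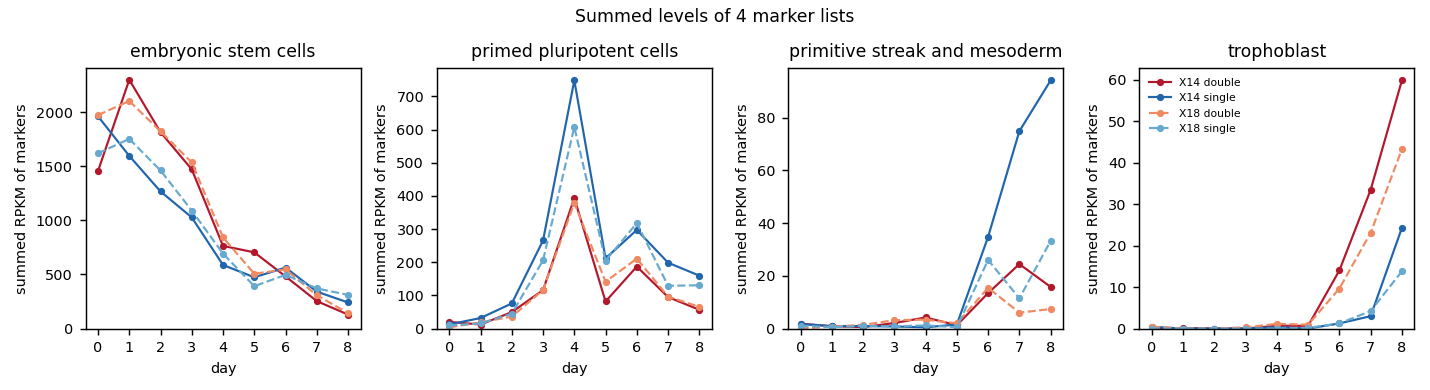
Summed RPKM of the markers of 4 cell types (vertical axes, linear, starting at 0) against day (horizontal axes), with 1 point per library and 1 line for each line and label series. The mESC sum falls from 1457 to 1974 on day 0 to 129 to 311 on day 8, the primed sum peaks on day 4, and the streak and trophoblast sums leave the baseline on day 6.

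The comparison of the library names double and single asked whether the members differed between them within lines. Over all days none of the 7 was called (background 2.99%). Tdgf1 was lower in the double libraries by 0.50 on the log2 scale (SE 0.166, adjusted p = 0.0356), short of the minimum difference of 1, and it was the only member with an adjusted p under 0.05 in that fit. Without day 0, where the Hprt order of X14 was the other way, it differed by -0.55 (adjusted p = 0.0247) and again no member was called (background 4.54%). When days 1 to 4 and days 5 to 8 were fitted as 2 periods, the difference between the names changed from the early to the late period in 3 of 7 members, by -1.66 for Lefty2 (SE 0.455, adjusted p = 0.0277), -1.15 for Nodal (SE 0.260, adjusted p = 0.00754) and -1.14 for Tdgf1 (SE 0.298, adjusted p = 0.0206). Of all genes 4.09% were called in this interaction, 1.57% in this direction. The median of the 7 was -0.59 and that of all genes 0.01. Each of the 3 members moved in the same direction, toward lower levels in the double libraries. The early difference was called for Lefty2 (1.38 higher in double, adjusted p = 0.00299; background 7.87%, with 4.11% higher), and was 0.69 for Nodal (adjusted p = 0.00897), short of the minimum of 1. The late difference was called for Tdgf1 (1.12 lower in double, adjusted p = 4.4e-04; background 5.84%, with 1.83% lower), and was -0.47 for Nodal (adjusted p = 0.0878).

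Pairs within lines show where the order turned. Nodal was higher in the double library in 10 of 10 pairs on days 1 to 5 and higher in the single library in 6 of 6 pairs on days 6 to 8. Day 4 had log2 differences of 1.16 (X14) and 1.27 (X18), and by day 8 the double libraries stood at 15.1 and 23.3 RPKM against 38.5 and 46.6 in the single ones. The split between days 5 and 6 was read from these pairs. Shares of all genes with such an order are therefore a description and support nothing for Nodal, Lefty2, Gdf3 or Tdgf1. Lefty2 was higher in double in 10 of 10 pairs on days 1 to 5 and lower in 5 of 6 afterwards, with day 4 differences of 1.46 and 2.82. Gdf3 was also higher in double in 10 of 10 pairs on days 1 to 5, by 0.02 to 1.17, and 4.26% of all genes showed that order. Tdgf1 was higher in single in 6 of 6 pairs on days 6 to 8, as were 10.3% of all genes, and its day 8 differences were -2.61 in X14 and -1.83 in X18. Lefty1 was not called in the interaction (-0.59, adjusted p = 0.606), while its pairs differed by 2.06 and 2.14 on day 4 and by -1.60 and -1.64 on day 8.

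**Figure D4:**
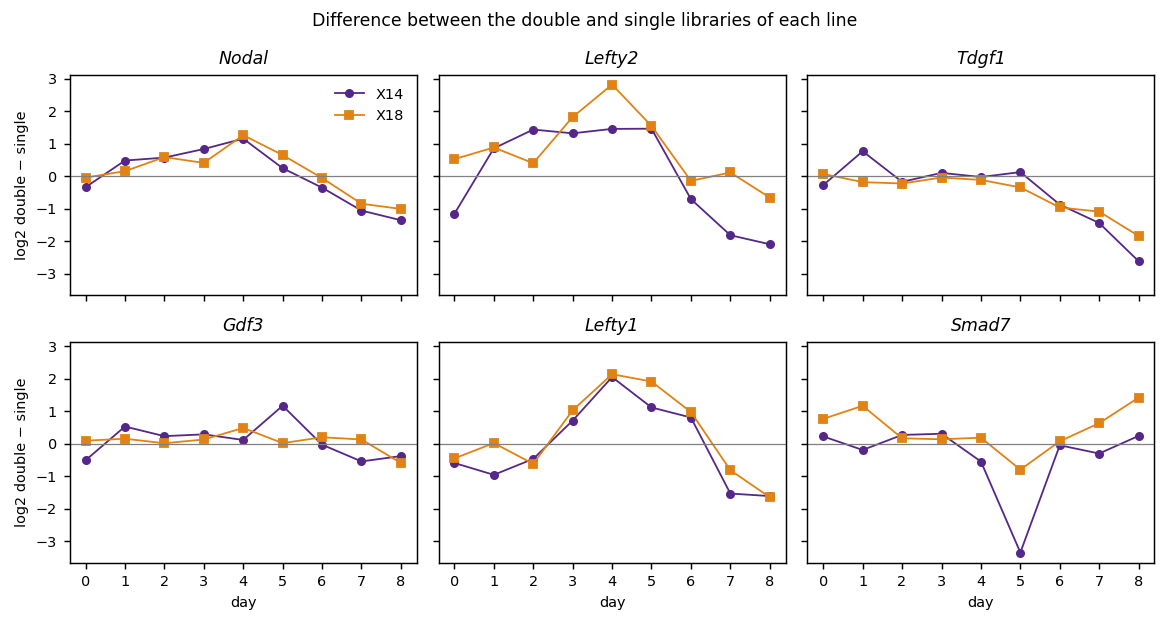
Log2 difference between the double and the single library of each line (vertical axes; above 0 is higher in double) against day (horizontal axes) for 6 genes, with 1 line per cell line. Nodal crosses 0 between days 5 and 6 and Lefty1 between days 6 and 7 in both lines, Tdgf1 lies below 0 from day 6, and the low point of Smad7 on day 5 in X14 rests on the library with 2 reads of that gene.

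These label results rest on 2 lines with 1 series of each name, and their p-values treated the days of a series as independent samples. Leaving out any 1 of the 4 series left a single series for 1 name in 1 line, and the interaction was then called in no member or, without the X18 single libraries, in Nodal alone (adjusted p = 0.0210), with 60 to 114 genes called in all against 597. The direction of all 3 members was the same in those fits. The early call of Lefty2 was lost without the X18 double (adjusted p = 0.108) or X18 single libraries (0.0597), and the late call of Tdgf1 without the X14 single (0.118) or X18 double libraries (0.0514). Markers moved with the labels in the same periods. Of the 7 mESC markers 1 was called in the interaction, and the other 6 had changes from -0.52 (Pou5f1) to 0.81 (Esrrb). Nanog was higher in double in 10 of 10 pairs on days 1 to 5 and was the one called (-1.79, SE 0.314, adjusted p = 8.8e-04). Klf4 was called higher in double in the late period alone (1.08, adjusted p = 0.0460). Of the 4 markers of primed pluripotency, Otx2 was called in the interaction (-1.53, adjusted p = 0.00383), and Fgf5 (-1.23, adjusted p = 0.0536), Pou3f1 (0.26) and Dnmt3b (-0.06) were not. By period, Fgf5 was called lower in double in the late one (-1.06, adjusted p = 0.0077). Pou3f1 was called lower in double in the early one (-1.075, adjusted p = 0.00429), and Otx2 and Dnmt3b were called in neither. Of the 3 tested streak markers Eomes was called (-2.04, adjusted p = 0.0479). Of the 3 tested trophoblast markers Hand1 and Gcm1 were called and Cdx2 (0.10) was not. Both were higher in double in the late period (2.41 and 2.08, adjusted p = 5.4e-05 and 7.8e-05), and T was lower (-1.18, adjusted p = 0.0175). On day 8 the trophoblast sum was 59.8, 24.3, 43.3 and 13.8 RPKM, and the streak sum was 15.8, 94.1, 7.40 and 33.2. Their part in the label differences was not tested.

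Between the lines X14 and X18 no member was called over all days (background 0.0137%), with differences from -0.27 (Tdgf1) to 0.22 (Lefty2) and no unadjusted p under 0.05 among the members. In the interaction of line and period no member and no gene was called by limma (background 0%), and 680 of all genes had an unadjusted p under 0.05, none of them a member. The voom fit of recovered reads also called no member in either comparison.

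The wider pathway was followed with 38 other genes. Of these 37 were tested, and Acvr1c, a type I receptor, had no read in any library. Over the 9 days 29 of the 37 changed, against 65.2% of all genes. At day 4, 9 were called higher than on day 0 and 3 lower, where the shares of all genes were 12.2% and 6.4%. The counts were 19 and 3 at day 6 (shares 22.4% and 11%) and 16 and 3 at day 8 (23.9% and 11.1%). Without the X14 day 0 libraries they were 12 and 3, 19 and 3, and 19 and 1 at these days, where 29.8%, 41.8% and 42.3% of all genes were called in either direction. The median log2 difference of the 37 at these days was 0.15, 1.05 and 1.01, where all genes had 0.12, 0.24 and 0.23. It was the same to 2 decimals with genes lacking reads on a day set at a bound of 3 reads. On the step from day 5 to day 6, where 5 of 7 members rose, 6 of the 37 were called, all higher (9.72% of all genes were called and 7.14% were higher): Fst, Ncln, Smad3, Pmepa1, Eomes and T.

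Several transducers were higher by day 4. Foxh1, the forkhead partner of Smad2 and Smad3, had means of 10.7 (day 0), 58.9 (day 4), 59.4 (day 6) and 23.6 RPKM (day 8), and was 2.70 above day 0 on the log2 scale on day 4 (adjusted p = 7.8e-07). Smad3 went from 2.01 to 6.15 on day 4 and 14.1 on day 6 (log2 difference 2.94 from day 0, adjusted p = 2.6e-07). Of the 6 transducers, 3 were called higher on day 4 (Foxh1, Smad3 and Trim33) and none lower, beside the 12.2% of all genes called higher. Of the 8 intracellular inhibitors, 6 were higher on day 6 than on day 0 and none lower (22.4% and 11% of all genes), among them Skil (1.84, adjusted p = 8.8e-07), a Smad corepressor, and Pmepa1 (2.11, adjusted p = 3.2e-04), a membrane protein that sequesters Smads.

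Ligands, convertases and receptors were mixed. Inhbb, the other activin subunit, had 343 reads in all, with 67 on day 0 and none in any library from day 4 to day 7. Without the X14 day 0 libraries it was called above day 0 on day 1 (2.72, adjusted p = 0.00536) and day 2 (2.37, adjusted p = 0.00315). With all libraries it was called on neither of these days. Pcsk6, a convertase that cleaves pro-Nodal, fell from a mean of 16.5 RPKM on day 0 to 3.27 on day 4 and 1.14 on day 8 (log2 difference -3.69, adjusted p = 1.1e-07). Furin, the other convertase, was higher on day 6 than on day 0 (1.61, adjusted p = 0.00105). Gdf1, a ligand that forms dimers with Nodal, was higher on day 4 (2.43, adjusted p = 0.00209) at a mean of 2.64 RPKM. Of the 3 tested receptors 1 was higher on day 6, Acvr1b (1.52, adjusted p = 0.00166), the main type I receptor for Nodal. Among the 7 target transcription factors 3 were called higher and 1 lower on day 6 than on day 0, beside 22.4% and 11% of all genes. Eomes (3.86, adjusted p = 1.1e-04), Mixl1 and T rose and Gsc fell, from 31 reads to 2. The call of Mixl1 was lost without the X14 day 0 libraries (1.31, adjusted p = 0.222). T, the mesoderm factor Brachyury, had 2 reads in the 4 libraries of day 5, 111 in those of day 6 and 519 by day 8, and the Nodal antagonist Cer1 had no read before day 7, when it had 27.

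**Figure D5:**
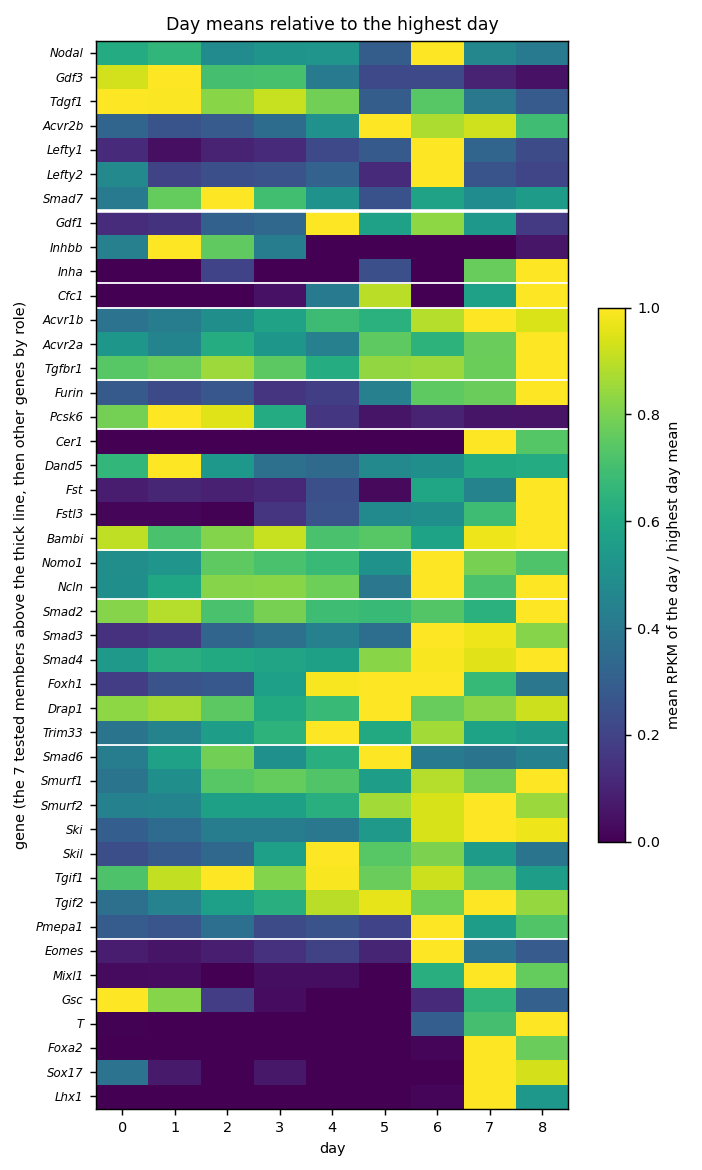
Mean RPKM of each day divided by the highest day mean of that gene (colour, 0 to 1) for the 7 tested members and the 37 tested pathway genes (rows, with white lines between roles) by day (columns), n = 4 libraries a day. Nodal, Lefty1, Lefty2, Pmepa1 and Eomes have their highest mean on day 6, and Gdf3, Tdgf1, Pcsk6 and Inhbb have theirs on day 0 or 1.

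Likeness of profile was measured over 10887 genes whose mean reached 10 RPM on some day. Over the 36 log2 values the closest to Nodal was Lefty2 (Pearson r 0.833), followed by Ino80c (0.730) and Nsdhl (0.721). For Lefty2 it was Nodal, Nsdhl (0.745) and Rbm43 (0.661). For Lefty1 the nearest were Dnd1 (0.821), Wnt8a (0.796) and Trim67 (0.790), all with their highest mean on day 6. Gdf3 was closest to Actl6a (0.962), Spp1 (0.955) and Mcf2 (0.950). Tdgf1 was closest to the row of its pseudogene AC139347.1 (0.978), then to Dut (0.903) and Ddx39 (0.901). Acvr2b was closest to Ptpru (0.838), Baiap2l1 (0.809) and Fam46b (0.809), and Smad7 to Zfp553 (0.873), Aebp2 (0.869) and Fbxw7 (0.828). Within the set the other high values were Gdf3 with Tdgf1 (0.801) and Nodal with Tdgf1 (0.621), and Lefty1 with Lefty2 was 0.513. These correlations describe 36 libraries that share 4 series, the days and the depth of each library, and carry no test.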

How the data were processed

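Total RNA from 36 libraries (9 days, 4 a day) was sequenced as 75-base single-end reads. The authors trimmed the reads, aligned them to mm10 and quantified them per gene in SeqMonk. The values they deposited are described as log2 of reads scaled to library size. Their steps also scaled with a length of each gene, which came out whole for 100% of genes and matched the merged exon length of GENCODE M21 in 11472 of 22710 genes found there, so they were taken as log2 RPKM. A gene without reads was written as 0.9 read. The annotation version and strand setting are not given in the sources used here. Whole reads were recovered for 100% of the values (tolerance 0.05 of a read) and served for depth, for RPM and for a voom fit.

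Of 25965 genes, 14612 had at least 1 RPM in at least 4 libraries and were tested with limma 3.58.1 (R 4.3.3, trended variance) using those log2 values and a factor for day over all 36 libraries. Labels and lines were fitted with day as a covariate, and their change between days 1 to 4 and days 5 to 8 as an interaction. P-values were two-sided and adjusted by Benjamini-Hochberg over all genes tested, and a gene was called at an adjusted p under 0.05 and a log2 difference of at least 1. The fits were tested on simulated data. The members, pathway genes, markers and tests were chosen with earlier results of these data known. Genes named beside the members are all of the fixed pathway and marker lists and, for each tested member, the 3 genes of highest Pearson r. From the pathway list 1 gene is not reported here. Those marker and pathway genes given values, and Hprt, were picked from them after their values were seen.

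Libraries with the same replicate number share line and label, so the numbers pair the samples. The median correlation of their deviations from the day means was 0.144, 0.142, 0.127 and 0.191 for the 4 numbers. The lowest correlations were -0.578, -0.266, -0.171 and -0.215, and that of number 1 was -0.251 over days 1 to 8. Motif and sequence searches used GENCODE M21 and RefSeq for this build. Alternatives covered scaling, pseudocount, filter, voom, the replicate block, fewer libraries and each series left out.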

Additional observations from a re-analysis of the deposited data

Results flagged for a closer look

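The level of Smad7 in the X18 single library of day 8 was 3.158 RPKM, while the other 3 libraries of that day lay between 7.738 and 9.187. On the log2 scale its gap to the nearest of them was 0.839 of the range. It was 1 of 63 groups of 4 libraries examined, and chance alone flags about 1 group in 20.

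The difference between the double and single libraries changed from days 1 to 4 to days 5 to 8 in 3 members by the interaction term of limma: by -1.660 on the log2 scale in Lefty2 (adjusted p = 0.0277), by -1.154 in Nodal (adjusted p = 0.00754) and by -1.143 in Tdgf1 (adjusted p = 0.0206). With the late period set at days 6 to 8, a choice made after seeing the data, the values were -2.28, -1.41 and -1.46 (adjusted p = 3.1e-04, 5.0e-04 and 5.2e-04). Without 1 of the 4 series the adjusted p ranged from 0.0210 to 0.584 over these 3 genes. The part of the markers that moved with the labels was not tested.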

How the results depend on the processing

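Of 191 counts of members called under alternatives, 171 were within 1.5 times the value reported. Without the day 0 libraries of X14, 2 members in place of 1 were called on day 4 against day 0. The voom fit called 4 in place of 2 on day 8 against day 0 and 4 in place of 2 on day 7 against day 6, where a fit of those days alone also called 4. That kind of fit called 1 in place of 2 on day 5 against day 4. With no minimum fold change 1 member in place of 0 differed between double and single. Without the X14 double library of day 5, chosen after seeing the data, 3 members in place of 5 were called on day 6 against day 5. The cause of these changes was not tested.

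With 1 series left out, the members called ranged from 6 to 7 over the 9 days, from 1 to 2 for day 4 against day 0, from 2 to 3 for day 8 against day 0, from 0 to 2 for day 5 against day 4, from 3 to 4 for day 6 against day 5 and from 0 to 2 for day 7 against day 6. They ranged from 4 to 6, 2 to 3 and 1 to 4 for days 5, 6 and 7 against day 0, and from 0 to 1 for the interaction of label and period. Over 49 pairs of a member and a comparison, 566 of 648 values kept their direction and side of the threshold, 48 lost and 33 gained the call, and 1 changed sign. That was Smad7 on day 5 against day 0, at -0.96 with all libraries, where leaving out 1 series gave -1.588 to 0.004, the last without X14 double.

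With the replicate number as a block, 3 members in place of 2 were called on day 8 against day 0 (Lefty2 added) and Smad7 was called on day 2. The block changed no other call of a member between days. Labels and lines were not fitted with it, since a number stands for 1 line and 1 label. Depth limits Acvr2b, Smad7 and above all Inhba, whose reads stayed at or under the floor.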
